A study of Mus musculus with 10 samples.

Results

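Killer cell lectin-like receptors are the type II membrane receptors of the natural killer gene complex. Their genes were taken as every symbol that begins with Klr, a letter and further letters or digits, which gave 26 of the 32285 genes in the feature tables. All 26 lie on mouse chromosome 6, and 24 of them lie in a stretch of 2638136 bases that runs from Klrb1a (chr6:128609227-128623533, minus strand) to Klra2 (chr6:131219223-131247362, minus strand), in GRCm38 coordinates of the GENCODE annotation. Klrg1 (chr6:122270596-122282882) and Klrg2 (chr6:38625693-38637242), both on the minus strand, lie outside it. In the gates described here 23 members had at least 50 UMIs in lymphoid and myeloid cells and are described with values. Klrb1, Klra8 and Klra6 stayed under that minimum, with 16, 49 and 3 UMIs in all cells used.

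Natural killer (NK) cells are innate lymphocytes that read the surface of other cells through pairs of inhibitory and activating receptors, many of them of this family. Klrd1 (CD94) pairs with the NKG2 chains of the Klrc genes and binds the non-classical class I molecule Qa-1, encoded by H2-T23. Klrk1 (NKG2D) is activating, signals through the adaptor Hcst and binds stress-induced ligands of the Raet1, H60 and Ulbp1 groups. The Klra genes encode the Ly49 receptors, most of which bind classical class I molecules and which, in mice, take the place that killer immunoglobulin-like receptors have in humans. The Klrb1 genes encode NKR-P1 receptors, of which Klrb1b binds Clec2d and Klrb1f binds other Clec2 proteins. Klrg1 binds cadherins, and Klre1 pairs with Klri1 or Klri2.

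All mice were wild-type BALB/C females aged 8 weeks, and the cells were isolated from their lymph nodes. In the 4T1 and 67NR groups, cells of these mouse mammary carcinoma lines had been injected orthotopically into the mammary fat pad, and the axillary nodes were taken at 18 days with tumours of 500 mm3. In the LPS group, present only in the stromal library, bacterial lipopolysaccharide had been given subcutaneously for 72 hours, and naive mice were untreated. Hashtag antibodies carried the condition in a stromal library (4T1, 67NR, LPS and naive), a myeloid and stromal library and a T cell library (4T1, 67NR and naive each). Atlases of naive axillary and of naive mediastinal nodes had no treated group. Each condition of a library is 1 pool of at least 3 mice, with no map from cells to mice. BALB/C mice carry another set of Klra genes than the C57BL/6 reference to which reads were aligned, and in 11 members over 10% of the 50-base words at the 3' end also occur in another gene, up to 49.4% in Klra9. The 11 are Klra and Klrc genes together with Klrb1b (22.4%), Klrb1c (17.8%) and Klri1 (10.2%). Counts of single genes among them are therefore uncertain where other genes share sequence. In contrast, Klrd1, Klrk1, Klrg1, Klrb1f, Klre1, Klra2, Klra17 and Klra5 share no such word.

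The 5 gene libraries held 36622159 to 121022621 UMIs, and the cells used had a median of 2272 UMIs in the mediastinal atlas and of 6433 to 12899 in the other 4. Library pairs shared between 6 and 82 cell barcodes. Cells were assigned to gates by summed UMIs of fixed marker genes, none of them a Klr gene. NK-gate cells numbered 1422 in the axillary atlas, 61 in the mediastinal atlas and 60 in naive nodes of the myeloid and stromal library, with Ncr1 (the NK receptor NKp46) at 611, 390 and 413 UMIs per 1000000 UMIs of the gate (CPM) and Cd3e at 0. In the axillary atlas the median NKp46 antibody count was 9 in the NK gate and 1 in each of the other lymphoid gates, and that of the gamma-delta T cell receptor antibody was 77 in the gamma-delta gate. The mediastinal antibodies did not separate the gates in this way (median 2 for the gamma-delta receptor antibody in its gate), and in that atlas B cells, which should lack these receptors, had 143 CPM over all 26 genes, against 9.28 CPM in axillary B cells. Mediastinal levels are therefore given beside the axillary ones and not summed with them. The edgeR fits below do include the sums of both atlases, and their results without each atlas are given too. CPM of 3' UMI counts are not scaled by transcript length, and levels are compared between cells and not between genes.

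Promoter sequences are shown for 5 members that stand for the expression patterns described below: Klrk1 and Klrc1 for receptors shared by NK and T cells, Klra2 and Klra17 for those found in neutrophils, and Klrb1f for the one found in lymphatic endothelium. Each runs 5′ to 3′ on the gene's own strand from 250 bases before to 50 after the RefSeq start (GRCm38.p6), and RefSeq promoters were matched for 23 of the 26 genes. Capitals mark matches, on either strand, to a Runx motif (TGTGGT) or a C/EBP motif (TTGCNNAA). The windows are chr6:129623815-129624114 for Klrk1, chr6:129678924-129679223 for Klrc1, chr6:131247313-131247612 for Klra2, chr6:129876623-129876922 for Klra17, all on the minus strand, and chr6:129045651-129045950 on the plus strand for Klrb1f.
Klrk1: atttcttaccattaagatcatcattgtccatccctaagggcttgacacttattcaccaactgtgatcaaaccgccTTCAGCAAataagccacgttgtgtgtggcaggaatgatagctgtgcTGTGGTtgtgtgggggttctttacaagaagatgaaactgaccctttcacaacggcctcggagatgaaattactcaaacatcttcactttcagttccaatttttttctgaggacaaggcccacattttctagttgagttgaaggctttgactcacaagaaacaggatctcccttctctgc
Klrc1: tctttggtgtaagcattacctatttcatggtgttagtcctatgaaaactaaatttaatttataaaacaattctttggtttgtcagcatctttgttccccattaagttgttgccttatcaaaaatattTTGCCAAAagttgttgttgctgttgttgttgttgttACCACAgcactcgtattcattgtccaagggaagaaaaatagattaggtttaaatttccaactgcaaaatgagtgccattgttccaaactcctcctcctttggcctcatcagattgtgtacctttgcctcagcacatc
Klra2: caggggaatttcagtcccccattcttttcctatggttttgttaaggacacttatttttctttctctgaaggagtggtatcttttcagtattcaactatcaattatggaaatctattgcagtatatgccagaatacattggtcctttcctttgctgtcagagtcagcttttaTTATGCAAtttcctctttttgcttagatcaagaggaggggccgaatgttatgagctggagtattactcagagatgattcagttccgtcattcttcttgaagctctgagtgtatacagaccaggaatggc
Klra17: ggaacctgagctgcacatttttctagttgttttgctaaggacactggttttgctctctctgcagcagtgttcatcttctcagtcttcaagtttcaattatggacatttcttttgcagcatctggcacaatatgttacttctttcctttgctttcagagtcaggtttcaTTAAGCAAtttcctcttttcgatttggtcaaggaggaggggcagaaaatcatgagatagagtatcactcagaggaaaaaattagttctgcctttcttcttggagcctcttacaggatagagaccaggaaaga
Klrb1f: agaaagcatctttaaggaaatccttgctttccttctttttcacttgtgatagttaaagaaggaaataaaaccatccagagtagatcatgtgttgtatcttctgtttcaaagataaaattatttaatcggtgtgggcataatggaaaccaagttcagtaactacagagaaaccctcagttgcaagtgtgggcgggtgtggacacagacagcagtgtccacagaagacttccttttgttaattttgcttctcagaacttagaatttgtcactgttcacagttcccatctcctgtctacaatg
The Runx motif lay 129 to 124 bases before the start in Klrk1 and 87 to 82 in Klrc1, and the C/EBP motif 175 to 168 in Klrk1, 123 to 116 in Klrc1, 79 to 72 in Klra2 and 82 to 75 in Klra17. The Klrb1f window held neither. The Runx letters occurred in 8 of the 23 promoters and in 16.8% of 32851 promoters of the same length, and the C/EBP letters in 10 of the 23 and in 10.8% of all. Beside the members printed, the C/EBP letters lay in the Ly49 genes Klra3, Klra4, Klra5, Klra6, Klra8 and Klra10. Of these, Klra3, Klra4 and Klra10 had most of their axillary UMIs in NK cells, so the letters were not confined to the members found in neutrophils. These are matches of letters only, and no binding was measured. The 2 motifs did not overlap in the promoters printed.

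NK cells held more transcripts of these genes than any other gate: 4100 CPM over all 26 in the axillary atlas, 2960 in the mediastinal atlas and 3700 in naive nodes of the myeloid and stromal library. Innate lymphoid cells had 837 and 401 CPM in the axillary and mediastinal atlases. Gamma-delta T cells had 786 and 407 CPM, and CD8 T cells 280 and 291 CPM. The T cell library gave 282, 255 and 240 CPM for CD8 T cells in 4T1, 67NR and naive nodes.

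**Figure D1:**
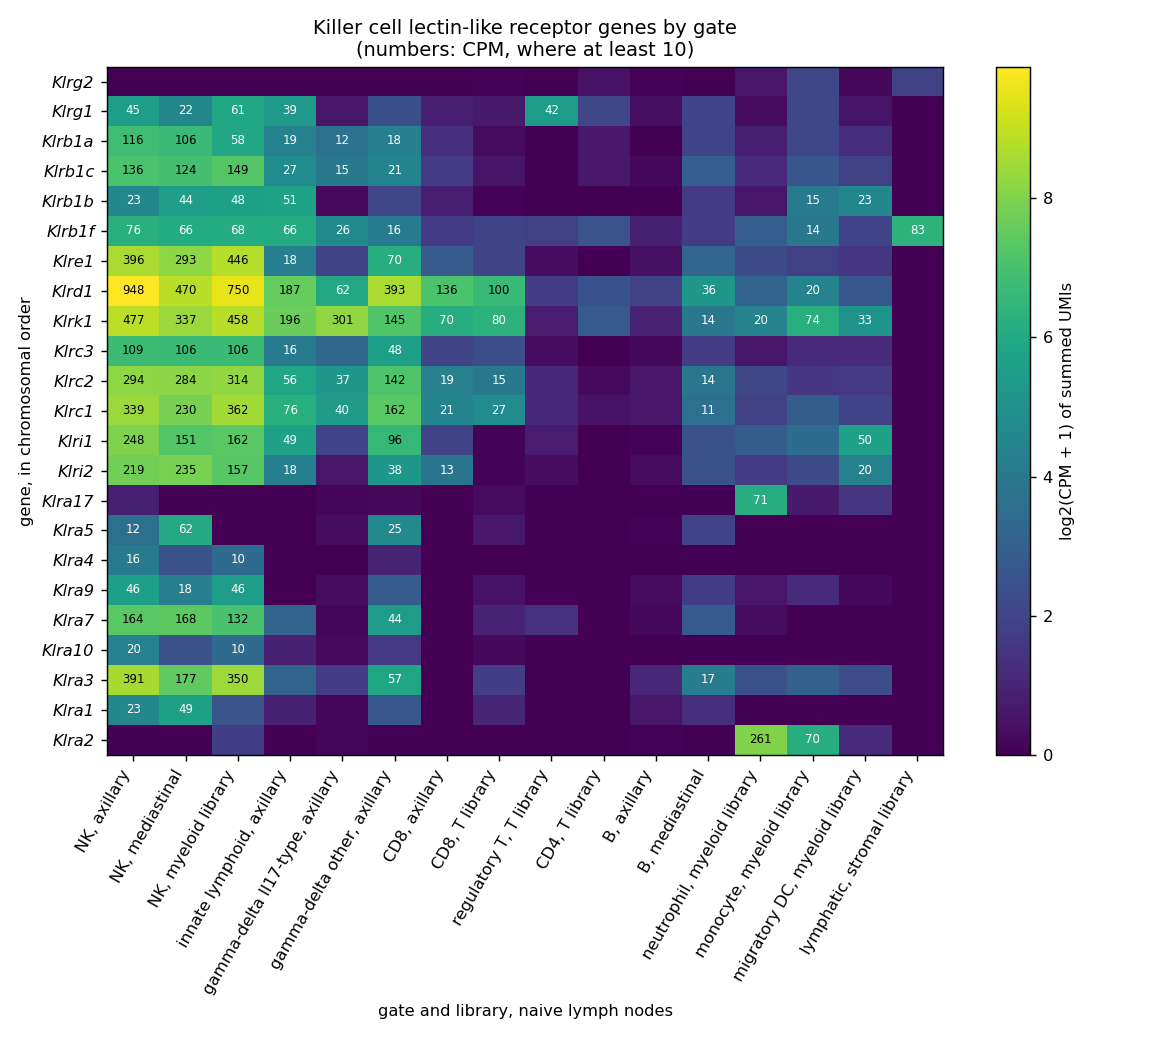
Heat map of log2(CPM + 1) for the 23 described genes, in chromosomal order down the page, in 16 gates of naive nodes across it; brighter is higher, and the printed number is the CPM where it is at least 10. The 3 NK columns are bright from Klrd1 (948, 470 and 750 CPM) through the Klrc, Klri and several Klra genes, while neutrophils are bright at Klra2 (261 CPM) and lymphatic cells at Klrb1f (83 CPM).

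Among the receptors for Qa-1, Klrd1 had 948 CPM in axillary, 470 in mediastinal and 750 in myeloid-library NK cells, against 136 in axillary and 90.6 in mediastinal CD8 cells. In the T cell library Klrd1 stood at 110, 85.4 and 100 CPM in CD8 cells of 4T1, 67NR and naive nodes. All 3 NK sums lay above all 5 CD8 sums. How many of all genes separate these sums in the same way was not counted. Its partner Klrc1 (NKG2A, the inhibitory chain) had 339, 230 and 362 CPM in the same 3 NK sums, against 19.2 to 41.0 CPM in the 5 CD8 sums, and Klrc2 (NKG2C, an activating chain) had 294, 284 and 314 CPM, against 13.7 to 26.7. Klrc3 had 106 to 109 CPM in NK cells, against 3.10 to 8.23 in CD8 cells. The NKG2D gene Klrk1 had 477, 337 and 458 CPM in NK cells, against 52.1 to 89.1 CPM in CD8 cells, so its NK and CD8 sums did not overlap either.

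Among the receptors with a narrower pattern, Klre1 had 396, 293 and 446 CPM in NK cells and 1.69 to 11 in CD8 cells, and its partners Klri1 and Klri2 had 151 to 248 and 157 to 235 CPM in NK cells, against at most 8.23 and 13.7 in CD8 cells. Of the NKR-P1 genes, Klrb1c (NK1.1 in C57BL/6 mice) had 136, 124 and 149 CPM in NK cells and at most 8.23 in CD8 cells, and Klrb1a 116, 106 and 58.3 CPM, also against at most 8.23. Klrb1f had 75.7, 66.5 and 68.4 CPM in NK cells, against 2.32 to 8.23 in CD8 cells. Klrb1b, an inhibitory receptor, had 22.7, 44.3 and 48.1 CPM in NK cells, against at most 0.775. Klrg1, a marker of matured NK and effector T cells, had 45.1, 22.2 and 60.8 CPM in NK cells and 0.626 to 2.74 in CD8 cells. For each of these genes, every NK sum was above every CD8 sum. The share of all genes with such a separation was not counted, so it describes these members only.

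The Ly49 genes divided into those of NK cells and those of myeloid cells. Klra3 had 391, 177 and 350 CPM in the NK sums, against 0 to 3.48 in axillary and T-library CD8 cells and 27.4 in mediastinal CD8 cells, and Klra7 had 164, 168 and 132 CPM, against at most 5.49. Klra9 (17.7 to 46.4 CPM), Klra1 (5.07 to 48.8), Klra10 (4.43 to 19.8) and Klra4 (4.43 to 16.4) were lower in NK cells and at most 8.23 CPM in any CD8 sum. Klra5 was uneven, at 11.7 CPM in axillary and 62.1 in mediastinal NK cells and without a UMI in the 60 NK cells of the myeloid and stromal library. Klra2 had no UMI in either atlas NK sum and 1 UMI (2.53 CPM) in the myeloid and stromal library, and Klra17 had 0.850 CPM in axillary NK cells and none in the other NK sums. Klrg2, a member of little known function, had no UMI in NK cells.

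Per cell, 1377 of 1422 axillary NK cells had a Klrd1 UMI (96.8%, exact Clopper-Pearson 95% interval 95.8 to 97.7%), against 1.75% of 1884 axillary B cells. The mean depth was 5790 UMIs per NK cell and 7100 per B cell. Klrk1 was seen in 82.2% of NK and 0.637% of B cells. Klra3 was seen in 43.0% of NK cells (40.4 to 45.7%) and 0.796% of B cells. Intervals on shares and on CPM cover counting error only.

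The Ly49 genes were patchy across NK cells, as is known of this family, whose members are switched on in overlapping subsets. In the axillary atlas 611 of 1422 NK cells (43.0%) had no Klra UMI, 25% had 1 Klra gene, 18.4% had 2 and 13.6% had 3 or more. Klra3 was found without Klra7 in 30.7% of NK cells, Klra7 without Klra3 in 11.6% and both in 12.3%. Klrd1 was found with Klrc1 in 65.9% of NK cells, and Klrc1 and Klrc2 were found together in 54.0%. Joint shares depend on how often each gene was seen alone, and Klrd1 was seen in 1377 of the 1422 cells. Whether any pair was found together more often than that gives was not tested. A cell counted as lacking a gene may hold transcripts that were not sampled. The words shared between Klra genes, or between Klrc1 and Klrc2, can move reads from one to another. The median number of members with a UMI was 7 per NK cell, 2 per gamma-delta cell without interleukin-17-type genes and 1 per gamma-delta cell with them.

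The gates were compared by edgeR's quasi-likelihood test on summed counts, with the library and condition as a block and Benjamini-Hochberg adjustment over all 13453 genes tested. Nothing in the labels ties the sums to separate animals, so these p-values measure only the spread between sums, which may be technical. NK and CD8 cells both reached 20 cells only in the axillary and mediastinal atlases. The NK sum of the myeloid and stromal library had no CD8 sum beside it and entered the fit with its gamma-delta cells. The comparisons of innate lymphoid and gamma-delta cells below also had both gates only in the atlases. In NK over CD8 cells 16 of the 21 members tested were higher and none was lower, with a median log2 fold of 4.06 against −0.03 for all genes. Among all genes 10.7% were called higher. Klrb1a (log2 5.68 ± 0.50 SE, adjusted p = 1.3e-08), Klrb1c (4.75 ± 0.43, 1.8e-08) and Klri2 (4.01 ± 0.39, 6.0e-08) had the smallest edgeR adjusted p. For each of them all 3 NK sums lay above every CD8 sum, though not as 3 pairs. Klra7 (5.70 ± 0.67, 1.8e-05), Klrg1 (5.0 ± 0.71, 1.6e-04) and Klri1 (5.70 ± 0.90, 6.9e-04) were also called, as were Klrb1f, Klre1, Klrb1b, Klra3, Klrc3, Klrc2, Klra1, Klra4, Klra9 and Klra10. The other 5 members had too few counts to be tested. A gene counted almost only in NK cells enters the test through those sums and had to differ, so the count of calls describes the tested members and is no separate evidence.

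Of the receptors that CD8 cells chiefly expressed, Klrc2 (log2 2.87 ± 0.83, edgeR adjusted p = 0.025) and Klrc3 (3.12 ± 0.86, 0.018) passed and the other 3 did not: Klrd1 gave log2 1.43 ± 0.84 (edgeR adjusted p = 0.27), Klrk1 1.28 ± 0.99 (0.42) and Klrc1 2.38 ± 0.91 (0.088). Within the axillary atlas alone, the Klrd1 ratio of NK over CD8 cells was log2 2.80 (exact 95% counting interval 2.58 to 3.02), and within the mediastinal atlas 2.38 (1.80 to 2.99). Without the mediastinal sums Klrd1 (2.19 ± 0.38, edgeR adjusted p = 0.0026), Klrk1 (1.94 ± 0.52, 0.025), Klrc1 (3.30 ± 0.48, 6.8e-04) and Klra5 also passed, for 20 members in all. Without the axillary sums 6 passed.

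Of 14 adaptor and signalling genes tested, 5 were higher in NK than in CD8 cells and none lower. Fcer1g and Tyrobp, which carry the activating signals of several of these receptors, had 1170 and 1760 CPM in axillary NK cells and 11.6 and 19.4 in axillary CD8 cells. Their log2 folds were 4.71 ± 0.84 (edgeR adjusted p = 0.0014) and 4.69 ± 0.87 (0.0018), and Syk, Sh2d1b1 and Inpp5d were also called. Hcst, the partner of Klrk1, had 457 and 335 CPM in the same cells and was not called. Of 10 ligand genes tested, H2-T23, which encodes Qa-1, was the 1 called, lower in NK cells at 187 against 293 CPM in the axillary atlas (log2 −0.73 ± 0.14, edgeR adjusted p = 4.8e-04). Of all 13453 genes tested, 1442 were called higher and 1457 lower, so 1 lower of 10 is near the share of all genes.

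The innate lymphoid gate is described as a mean over cells that may be of several kinds. Beside Klrk1, Klrd1 and the Klrc genes, it held transcripts of the NKR-P1 genes and Klrg1 and few of the Ly49 genes. Klrk1 had 196 CPM in axillary and 52.6 in mediastinal innate lymphoid cells, Klrd1 187 and 85.5, and Klrc1 75.9 and 52.6. CD8 cells of the same atlases had 70.5 and 52.1, 136 and 90.6, and 20.9 and 19.2 CPM. None of these genes was called over CD8 cells in edgeR's test. Klrb1b had 51.2 CPM in axillary and 13.2 in mediastinal innate lymphoid cells, against 0.775 and 0 CPM in CD8 cells, and Klrg1 38.8 and 65.8 CPM, against 0.775 and 2.74. Klrb1f had 66.2 and 13.2 CPM, against 2.32 and 8.23. Over CD8 cells 6 of 21 members were higher in edgeR's test, where 9.83% of all genes were: Klrb1b (log2 5.03 ± 0.80, adjusted p = 8.9e-05), Klrb1f (3.08 ± 0.53, 3.1e-04), Klrg1 (5.15 ± 0.89, 0.0011), Klrb1a (3.11 ± 0.68, 0.0018), Klrb1c (2.35 ± 0.56, 0.0043) and Klri1 (3.69 ± 1.13, 0.044). All 6 calls were lost without the axillary sums, where Klrb1c turned to −0.65. Of the adaptor and signalling genes 3 of 14 were higher (Fcer1g at log2 3.62, Tyrobp at 3.00 and Inpp5d at 0.64) and 4 lower (Cd247, Lck, Fyn and Sh2d1a, which serve T cell receptor or SLAM receptor signalling). Of the ligand genes 2 of 10 were higher, Clec2g and Cdh2. Among all 13453 genes tested, 1323 were called higher and 1013 lower.

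NK over innate lymphoid cells gave 10 higher members of 21 and none lower, against 5.49% of all genes called higher. They were Klri2 (log2 3.56 ± 0.40, edgeR adjusted p = 1.4e-06), Klrb1c (2.40 ± 0.36, 6.7e-05), Klrb1a (2.57 ± 0.40, 1.0e-04), Klre1 (4.30 ± 0.73, 0.0014) and 6 Ly49 genes: Klra1, Klra3, Klra4, Klra7, Klra9 and Klra10. Klra3 had 391 CPM in axillary NK cells and 7.94 in axillary innate lymphoid cells, and no UMI in the 42 mediastinal innate lymphoid cells. Klrb1b went the other way in the axillary atlas, at 22.7 CPM in NK and 51.2 in innate lymphoid cells, but not in the mediastinal atlas, at 44.3 and 13.2 CPM, and was not called. Adaptor and signalling genes were higher in NK than in innate lymphoid cells for 6 of 14, and ligand genes lower for 3 of 10. Among all 13453 genes tested, 739 were called higher and 1003 lower. The count of 10 members was 3 without the axillary sums, 3 without the block and 16 without the mediastinal sums. Klra1 and Klra10 each had 1 UMI in axillary innate lymphoid cells. Ly49 genes counted almost only in NK cells enter this test through the NK sums and had to differ. The count of calls is therefore no separate evidence here either.

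Gamma-delta T cells differed by whether they carried at least 1 UMI of a set of interleukin-17-type genes, among them Il17a, Il17f, Il23r and Blk. In the axillary atlas the 1441 cells with such genes had Klrk1 at 301 CPM, in 65.6% of cells, against 145 CPM and 32.5% in the 917 other gamma-delta cells. Klrd1 went the opposite way, at 61.6 CPM in the interleukin-17-type cells and 393 CPM in the others, as did Klrc1 (40.2 and 162 CPM), Klrc2 (37.3 and 142 CPM) and Klrc3 (9.29 and 47.5 CPM). The dimer genes Klre1 (3.10 and 69.9 CPM), Klri1 (2.92 and 95.7 CPM) and Klri2 (0.531 and 37.8 CPM) were nearly absent from the interleukin-17-type cells. So were the Ly49 genes Klra3 (2.30 and 57.4 CPM), Klra7 (0.0885 and 43.7 CPM) and Klra5 (0.265 and 24.6 CPM). No Klra UMI was found in 99.2% of the interleukin-17-type and 82.7% of the other cells. Of the NKR-P1 genes, Klrb1f had 25.7 and 16.0, Klrb1a 12.4 and 18.1 and Klrb1c 14.8 and 20.8 CPM, and Klrb1b had 0.177 and 3.30 CPM from 2 and 20 UMIs. The antibodies also differed between these cells: the gamma-delta receptor antibody had a median of 98 (lower quartile 68) in interleukin-17-type and 34 (lower quartile 6) in other cells, against 1 in NK cells. The CD3 antibody had a lower quartile of 25 in interleukin-17-type and 9 in other cells, against a median of 4 in NK cells, whereas the NKp46 antibody had a median of 1 in both, against 9 in NK cells. The part of NK cells within the gate in these levels was not tested.

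**Figure D2:**
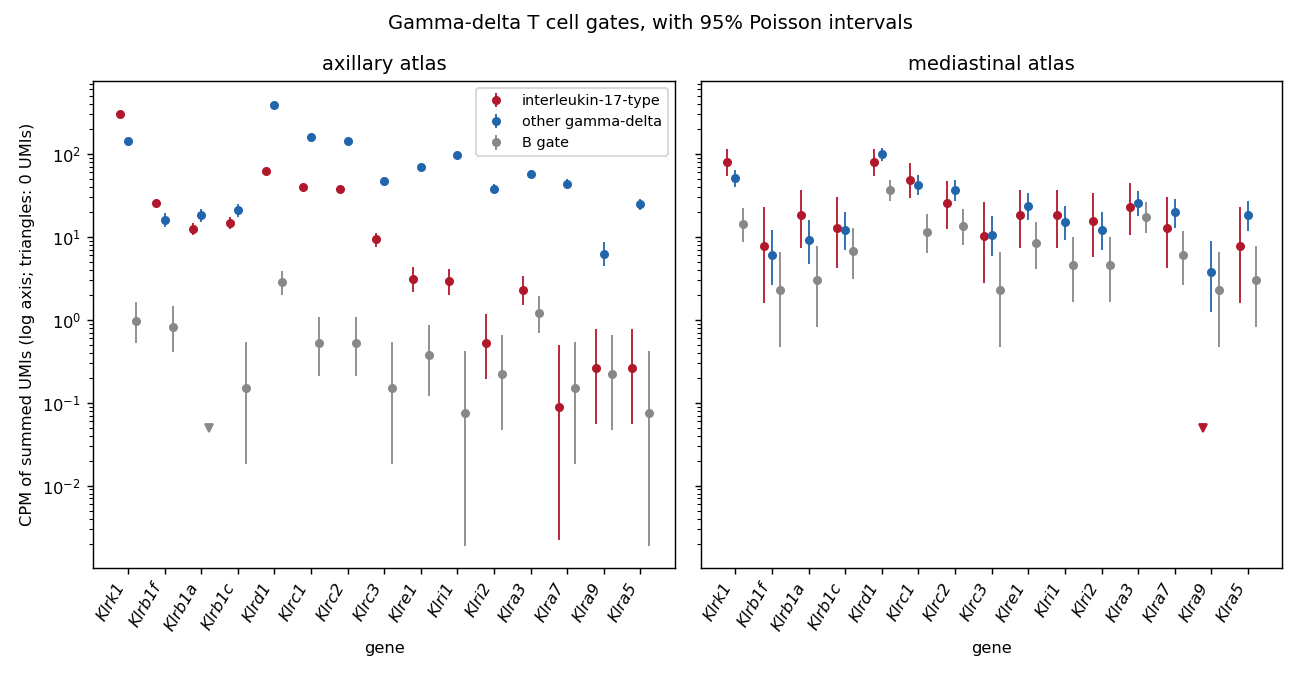
CPM on a logarithmic axis with 95% Poisson intervals for 15 genes in interleukin-17-type gamma-delta cells (red), other gamma-delta cells (blue) and B cells (grey), in the axillary (left) and mediastinal atlas (right); triangles mark 0 UMIs. In the axillary atlas Klrk1 is higher in interleukin-17-type cells (301 against 145 CPM) and Klrd1 lower (61.6 against 393 CPM), and in the mediastinal atlas the red and blue intervals overlap for Klrk1 and Klrd1.

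In the mediastinal atlas the same division was not seen. Klrd1 had 80.1 CPM in 170 interleukin-17-type cells and 98.6 in 633 others, and Klrk1 80.1 and 50.8 CPM. Over both atlases edgeR's test called 5 of 20 members lower in the interleukin-17-type cells, where 4.53% of all genes were called lower, and none higher: Klra9 (log2 −4.25 ± 0.86, adjusted p = 0.0023), Klri2 (−4.47 ± 0.86, 0.0045), Klre1 (−3.59 ± 0.80, 0.0085), Klra7 (−5.66 ± 1.21, 0.013) and Klri1 (−3.98 ± 1.02, 0.033). Klrk1 (1.16 ± 0.93, 0.54) and Klrd1 (−1.77 ± 0.91, 0.28) did not pass. No call was left under DESeq2 or without the block. Without the mediastinal sums 16 members were lower and Klrb1f was higher, among the lower ones Klrb1b (−3.85 ± 0.87, edgeR adjusted p = 0.0019) and Klrd1 (−2.45 ± 0.34, edgeR adjusted p = 2.0e-04), and without the axillary sums none was, with Klri1 at 0.28 and Klri2 at 0.37. These calls thus rest on the axillary atlas, and the part of the shallower mediastinal depth (2280 and 2080 UMIs per cell, against 7840 and 6610) was not tested. Over CD8 cells, gamma-delta cells as a whole had 2 higher members of 21, Klrb1a (2.81 ± 0.57, edgeR adjusted p = 0.0023) and Klrb1c (1.74 ± 0.48, 0.023), against 5.69% of all genes. Both calls were lost without the axillary sums and on cells thinned to 1000 UMIs, while 8 members were called without the mediastinal sums and 11 without the block. Clec2g was the 1 of 10 ligand genes called in that comparison (log2 4.52 ± 0.42, edgeR adjusted p = 2.7e-07). It had 16.1 and 6.45 CPM in axillary and mediastinal gamma-delta cells, against 0.775 and 2.74 CPM in CD8 cells. Its relative Clec2i was not called (log2 0.05 ± 0.25). None of the 14 adaptor genes was called (6 at an unadjusted p under 0.05). Between the kinds of gamma-delta cell, 1 adaptor gene was higher (Zap70) and 2 lower, and 2 ligand genes of 11 were higher (Clec2g and H2-T23) and 1 lower (Clec2i). Among all 13146 genes tested there, 735 were called higher and 595 lower.

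CD8 T cells expressed chiefly Klrd1, Klrk1 and the Klrc genes, and these were the receptors that could be compared between tumour-bearing and naive nodes. The T cell library held 956, 939 and 851 CD8 cells in 4T1, 67NR and naive nodes, with 1 sum per condition and therefore no test. Klrc1 had 681, 632 and 349 UMIs in these sums, which is 41.0, 37.9 and 27.3 CPM, and was seen in 20.1%, 20.9% and 12.5% of cells. Klrc2 had 414, 445 and 191 UMIs, or 24.9, 26.7 and 15.0 CPM, in 18.3%, 17.3% and 9.52% of cells. Both NKG2 genes were higher in both tumour groups than in naive nodes, by less than 2-fold: the Klrc1 log2 ratio was 0.59 (exact conditional binomial 95% interval 0.40 to 0.78) for 4T1 and 0.47 (0.28 to 0.66) for 67NR, and that of Klrc2 was 0.74 (0.49 to 0.99) and 0.84 (0.59 to 1.09). Both ratios share the naive sum. The 4T1 and 67NR sums did not differ beyond counting error for either gene, with log2 0.11 (−0.04 to 0.27) for Klrc1 and −0.10 (−0.29 to 0.10) for Klrc2. The CD8 cells had 17400, 17800 and 15000 UMIs per cell in 4T1, 67NR and naive nodes. Of them 853, 835 and 712 carried the effector transcripts by which these cells are divided below. The part of depth and of this makeup in the higher tumour values was not tested.

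Klrd1, the partner chain, was within log2 0.23 of naive in both, at 0.13 (0.03 to 0.23) in 4T1 and −0.23 (−0.34 to −0.12) in 67NR, and Klrk1 at 0.16 (0.04 to 0.28) and 0.10 (−0.02 to 0.22). Counting a member as changed where it moved at least 2-fold with an interval off 0, 2 of the 10 members with at least 30 UMIs changed in 4T1 and the same number in 67NR, where 1.76% and 1.96% of all such genes did. In both groups they were Klrg1 and Klra5, each from few UMIs. Klrg1 had 33, 40 and 8 UMIs in 4T1, 67NR and naive CD8 cells, and its log2 ratios over naive were 1.67 (0.52 to 2.99) and 1.94 (0.82 to 3.24). Klra5 had 55, 27 and 7 UMIs in only 10, 5 and 3 cells, so its ratios rest on few cells, at 2.60 (1.46 to 3.98) and 1.56 (0.33 to 3.01). Few cells carried much of the Klrc1 signal too: the tenth of cells with most UMIs held 80.3%, 79.1% and 94.3% of them.

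CD8 cells were divided by effector transcripts, namely those with at least 2 UMIs of Ccl5, Cxcr3, Nkg7 and Il2rb together and those with no UMI of the first 3 genes, fewer than 2 of Il2rb and at least 1 of a set of genes of resting T cells, among them Lef1 and Ccr7 (69, 67 and 95 cells in 4T1, 67NR and naive nodes). Klrc1 had 43.3, 40.4 and 29.5 CPM in the cells with effector transcripts in 4T1, 67NR and naive nodes, and 12.8, 1.34 and 3.21 CPM in the cells without. Klrk1 had 91.0, 88.6 and 85.5 CPM with and 65.2, 38.8 and 26.8 CPM without. Both kinds of cell reached 20 cells in the T cell library and the axillary atlas, and the mediastinal cells with effector transcripts entered the fit alone. None of 20 members was called in edgeR's test (2 at an unadjusted p under 0.05, and 1 by DESeq2), where 2.95% of all genes were higher in the cells with effector transcripts. Klrc1 gave log2 2.72 ± 1.11 (edgeR adjusted p = 0.21), and without the mediastinal sums 2.74 ± 0.57 (adjusted p = 0.01), where Klrc2 and Klrc3 were called too. The divided cells differed in depth, with 18100 and 11300 UMIs per cell in 4T1 nodes, and Cd44 was not higher in the cells with effector transcripts, so they are not called memory cells here.

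**Figure D3:**
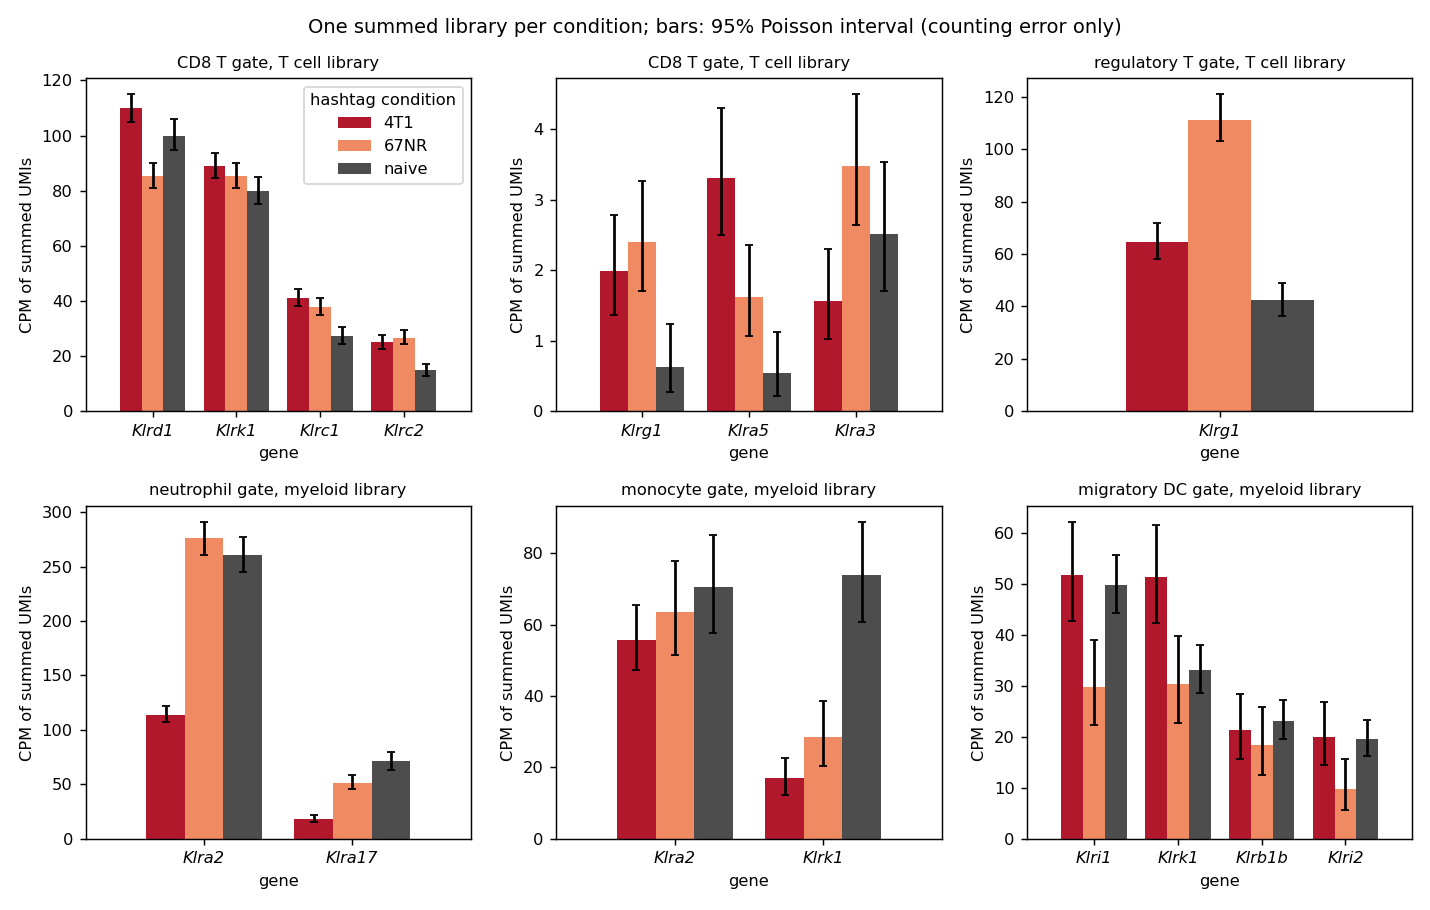
CPM by condition (4T1, 67NR, naive), 1 sum of cells per bar with a 95% Poisson interval, for members in CD8 T, regulatory T, neutrophil, monocyte and migratory dendritic cell gates; each panel has its own axis from 0. Klrg1 in regulatory T cells is highest in 67NR (111 CPM) and Klra2 in neutrophils is lowest in 4T1 (114 CPM).

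In regulatory T cells 1 member stood out, Klrg1, which marks a subset of activated, tissue-associated regulatory cells. It had 64.6, 111 and 42.3 CPM in 4T1, 67NR and naive nodes of the T cell library, 47.3 in the axillary and 15.9 in the mediastinal atlas. Conventional CD4 cells of the same sums had 5.24, 1.97, 3.25, 3.57 and 11 CPM. Regulatory cells were the higher in 5 of 5 sums, but in the mediastinal atlas only at 15.9 against 11 CPM. Whether that mediastinal difference exceeds counting error was not tested. How many of all genes were higher in every sum was not counted. edgeR's test gave a log2 fold of 3.81 ± 0.43 (adjusted p = 6.4e-05), with Klrg1 the 1 member higher of 21 tested, where 5.57% of all genes were. Klrb1c was the 1 lower member (−2.71 ± 0.71, adjusted p = 0.013), where 4.98% of all genes were lower, at 0 to 1.44 CPM in regulatory and 0.164 to 7.09 CPM in conventional cells. That call was lost without the axillary sums, without the block, with naive sums only and on thinned cells, where the highest edgeR adjusted p was 0.36. Of the 14 adaptor genes 4 were lower in regulatory cells (Hcst, Ptpn11, Fyn and Zap70) and none higher, and of the 10 ligand genes Clec2g was higher. Hcst was lower (log2 −0.92 ± 0.11, adjusted p = 2.6e-06), with 153, 184 and 183 CPM in 4T1, 67NR and naive nodes against 344, 358 and 341 CPM in conventional CD4 cells.

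Between conditions, Klrg1 had 351, 587 and 177 UMIs in 373, 417 and 344 regulatory T cells of 4T1, 67NR and naive nodes. The share of cells with a Klrg1 UMI was 20.9% (16.9 to 25.4%), 27.8% (23.6 to 32.4%) and 15.1% (11.5 to 19.3%). The level was higher in both tumour groups, with a log2 ratio over naive of 0.61 (0.35 to 0.88) in 4T1 and 1.40 (1.15 to 1.65) in 67NR. It was also lower in 4T1 than in 67NR, at −0.79 (−0.98 to −0.59). Klrg1 was the 1 member with at least 30 UMIs, and it passed 2-fold in 67NR, where 2.23% of all genes did, and not in 4T1, where 2.17% did. These ratios carry counting error only, with no replicate of a condition.

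In neutrophils the Ly49 gene Klra2 (Ly49B) and its relative Klra17 (Ly49Q), which unlike most of the family are known from myeloid cells, held most of the UMIs of the family. Klra2 had 838, 1306 and 1032 UMIs in 460, 635 and 670 neutrophils of 4T1, 67NR and naive nodes, which is 114, 276 and 261 CPM, and was seen in 65.9%, 71.8% and 62.8% of cells, against no UMI in the 72, 67 and 24 B cells of the same nodes and library. Klra17 had 136, 245 and 282 UMIs, or 18.5, 51.7 and 71.2 CPM. In 4T1 neutrophils both were lower than in naive ones, with log2 ratios of −1.19 (−1.32 to −1.06) for Klra2 and −1.94 (−2.25 to −1.64) for Klra17. In 67NR neutrophils the ratios were 0.08 (−0.04 to 0.20) and −0.46 (−0.71 to −0.21). In 4T1 over 67NR cells they were −1.27 (−1.40 to −1.15) and −1.48 (−1.80 to −1.17).

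These neutrophil shifts were not confined to the receptors. With Klrd1, 3 of 5 measured members were lower by at least 2-fold in 4T1 than in naive neutrophils, and 22.0% of all genes had moved that far. In 67NR over naive neutrophils 2 of 5 were lower, Klrd1 and Klrb1f, against 5.2% of all genes, and in 4T1 over 67NR neutrophils Klra2 and Klra17 were lower among 4, against 17.8%. Neutrophils of 4T1, 67NR and naive nodes had 16000, 7460 and 5910 UMIs per cell, and Csf3r, a receptor of mature neutrophils, had 333, 685 and 1020 CPM in them. Mmp8 had 166, 263 and 78.5 CPM. The part of depth and of these other changes in the lower Klra2 and Klra17 levels was not tested. Klrd1 counts were 5, 5 and 31 UMIs, and the NK gene Ncr1 had 3, 1 and 19 UMIs in the same neutrophils. NK-gate cells of that library numbered 9, 1 and 60 in 4T1, 67NR and naive nodes, and the part of NK transcripts in the Klrd1 values was not tested.

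Monocytes also carried Klra2, at 55.8, 63.7 and 70.5 CPM in 4T1, 67NR and naive nodes and 176 CPM in 28 axillary atlas monocytes, while Klra17 had 0, 2 and 1 UMIs in the 3 hashtagged sums. Klrk1 had 17, 28.5 and 73.8 CPM in the same monocytes, with a log2 ratio over naive of −2.12 (−2.65 to −1.61) in 4T1 and −1.37 (−1.92 to −0.85) in 67NR. Klrd1 had 9, 5 and 31 UMIs in the same monocytes. The part of NK transcripts in the Klrk1 values was not tested.

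Migratory dendritic cells of the myeloid and stromal library had Klri1 at 51.8, 29.8 and 49.9 CPM in 4T1, 67NR and naive nodes, in 16.0%, 13.8% and 16.1% of cells, with Klri2 at 20, 9.76 and 19.6, Klrk1 at 51.3, 30.4 and 33.1 and Klrb1b at 21.3, 18.4 and 23.1 CPM. Klre1, the known partner of Klri1 and Klri2, had 0.454, 0.574 and 1.96 CPM there, and the 139 migratory dendritic cells of the axillary atlas had no Klri1 or Klri2 UMI. None of 7 measured members moved 2-fold in 4T1 over naive cells, where 7.53% of all genes did. In 67NR over naive cells 1 of 6 did, Klri2 (log2 −1.0, −1.83 to −0.26), against 10.6%, but on cells thinned to 1000 UMIs its ratio turned to 0.96. Ncr1 had 1, 0 and 12 UMIs in these cells, against 114, 52 and 306 UMIs of Klri1.

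In the stromal library the family was almost silent but for Klrb1f in lymphatic endothelium. Lymphatic endothelial cells, gated by Prox1 and related genes, numbered 39, 49, 26 and 28 in 4T1, 67NR, LPS and naive nodes, and had 53, 145, 47 and 29 Klrb1f UMIs, or 86.1, 198, 122 and 83.1 CPM. Blood endothelial cells of the same nodes had 0, 0, 0 and 0.951 CPM and fibroblasts 0.762, 0, 0 and 1.34 CPM. The lymphatic gate held 274 of the 344 Klrb1f UMIs of the library (79.7%) in 142 of 2350 cells. Cells that met several gates held 57 more (16.6%), and the 600 blood endothelial and 756 fibroblast cells held 1 and 3. Ncr1 and Cd3e had no UMI in the lymphatic gate, and apart from Klrb1f the only member with a UMI there was Klrg2, with 1 in 4T1 and 1 in naive nodes.

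**Figure D4:**
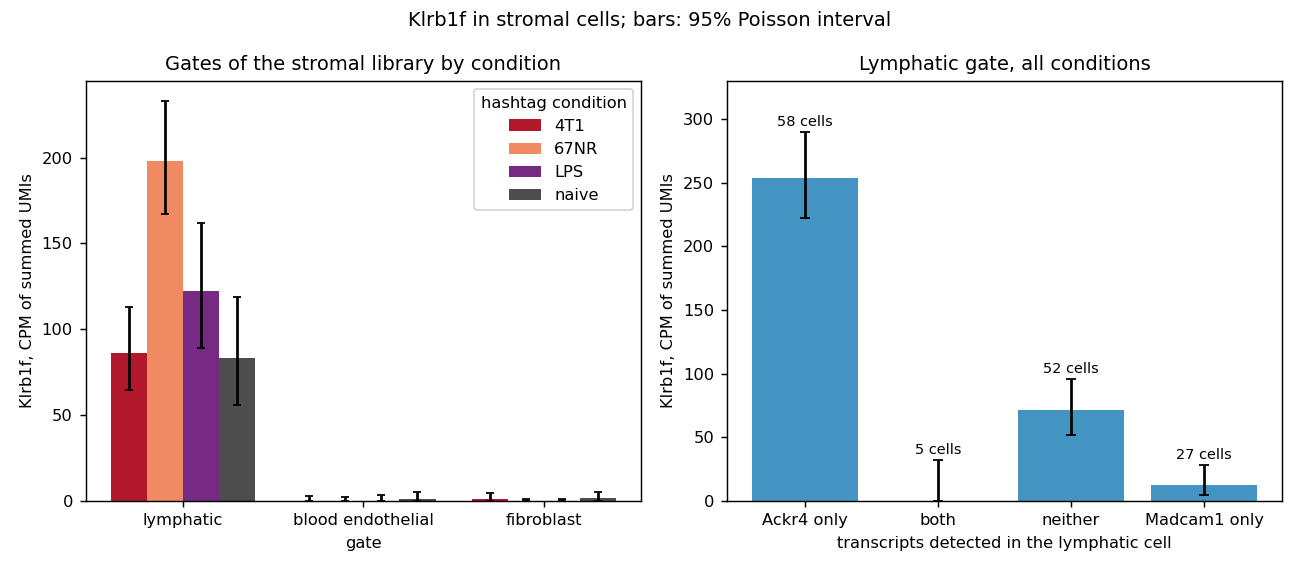
Klrb1f in CPM with 95% Poisson intervals, on the left by gate of the stromal library and condition (4T1, 67NR, LPS, naive), and on the right within the lymphatic gate, all conditions together, by detection of Ackr4 and Madcam1. Lymphatic cells stand at 83.1 to 198 CPM and blood endothelial cells and fibroblasts at 1.34 or below, and lymphatic cells with Ackr4 only are highest at 254 CPM.

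Between conditions, Klrb1f in lymphatic cells was higher in 67NR than in naive nodes (log2 1.25, 0.67 to 1.88), and in 4T1 (0.05, −0.63 to 0.76) and LPS (0.55, −0.15 to 1.27) the interval included 0. It was the 1 member with at least 30 UMIs and passed 2-fold in 67NR, where 8.54% of all genes did, and in neither 4T1, where 7.59% did, nor LPS, where 10.2% did. On cells thinned to 1000 UMIs it did not pass in 67NR either, and its level was 128 CPM in 4T1 and 192 CPM in LPS. The share of lymphatic cells with a Klrb1f UMI was 35.9%, 42.9%, 42.3% and 25% in 4T1, 67NR, LPS and naive nodes, with intervals that overlap throughout. The 5 cells with most UMIs held 55.2% of those of 67NR.

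Lymphatic cells of the nodes line different sinuses, and Ackr4, a chemokine scavenger, marks the ceiling of the subcapsular sinus while Madcam1, an adhesion molecule, marks its floor. The gate was split by these genes after the data were seen, and is described without a test. The 58 cells with Ackr4 and without Madcam1 had 224 UMIs, or 254 CPM (222 to 290), in 72.4% of cells. The 27 cells with Madcam1 and without Ackr4 had 6 UMIs, or 12.8 CPM (4.70 to 27.9), in 2 cells, the 5 cells with both had none, and the 52 cells with neither had 71.3 CPM. In naive nodes alone the 6 Ackr4 cells had 11 UMIs in 4 cells, at 194 CPM (96.8 to 347), and the 12 Madcam1 cells had 0. The 10 naive cells with neither stood nearer the Ackr4 cells, with 18 of the 29 UMIs, at 156 CPM (92.7 to 247). However, 1 cell held 14 of these 18 UMIs. Over all conditions, Lyve1 was seen in 24.1% of the cells with Ackr4 and without Madcam1. It was seen in 85.2% of those with Madcam1 and without Ackr4. Within the Ackr4 cells the level was 176, 314, 223 and 194 CPM in 16, 25, 11 and 6 cells of 4T1, 67NR, LPS and naive nodes, so that Ackr4 cells made up the smallest number in naive nodes. The part of this makeup in the difference between conditions was not tested. Clec2d, the ligand gene of Klrb1b, had 401, 330, 414 and 441 CPM in the lymphatic gate.

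Over all 58 sums of gates, the genes whose log2(CPM + 1) followed a member most closely were given by Spearman correlation, as a description over sums that share libraries. Klrd1 was followed by Klrc2 (0.93), Il12rb2 (0.92) and Klrk1 (0.91), and Klrk1 by Klrd1 (0.91), Atp8b4 (0.91) and Il12rb2 (0.90). Klrg1 was followed by Tnfrsf25 (0.86), Il2rb (0.86) and Sytl1 (0.84), and Klrb1c by Il12rb2 (0.88), Klrb1a (0.86) and Klrd1 (0.85). Klra2 was followed by Gm15448 (0.85), Cd300ld (0.82) and Cd209a (0.81), none of them a Klr gene.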

How the data were processed

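Lymph node cells were profiled with the 10x Genomics 3' v3.1 kit, per the labels' protocols. The authors deposited unnormalised UMI counts per gene or antibody and barcode, which came from Cell Ranger 7.0 and the mm10 build, according to the submitters' processing notes. Whether intronic reads were counted is not stated there. Cells needed at least 500 UMIs, 250 genes and at most 10% mitochondrial UMIs. Hashtag doublets were removed (a hashtag needed a count of 10 and 3 times the next), and scrublet, through scanpy 1.11.5, removed 877 axillary cells and marked 0 mediastinal cells, so it did not work there. Of the cells used, 1565 of 2350 stromal, 3161 of 5412 myeloid and stromal, 5400 of 7210 T cell library, 7494 of 10626 axillary and 2169 of 25148 mediastinal cells met 1 gate, and the others were left out. The gamma-delta gate was to require Trgc1, Trgc2 or Trgc4, which were not in the tables used, so it rests on Cd3, Trdc and the absence of Trac.

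Counts were summed per library, condition and gate where at least 20 cells were present. edgeR 4.0.16 (R 4.3.3; filterByExpr, TMM, glmQLFit, glmQLFTest) was fitted to 23 sums (12 residual degrees of freedom, biological coefficient of variation 0.149) and, for divided gates, to 27 sums (13146 genes, 15 degrees of freedom, 0.160), calling adjusted p under 0.05. DESeq2 1.42.0 was an alternative. On simulated counts for NK over CD8 cells (12988 genes) edgeR found 41% of the genes shifted by log2 1 and 70.7% of the genes shifted by log2 2, and made 5 false calls. Single sums were compared as log2 ratios of CPM with exact conditional binomial 95% intervals (measured: at least 30 UMIs over both sums). On CD8 sums of 4T1 and naive nodes simulated with Poisson counting error only, 95.7% of intervals held an unchanged ratio. The intervals assume that same error, so this share does not cover the spread between cells or mice. A gene without UMIs in a sum was set at a floor of 3 counts. Shares were repeated on cells thinned to 1000 UMIs. Some genes of the gate definitions are not reported here. Every member with at least 50 UMIs was described. The members, gates and gene lists were chosen with earlier results of these data known. Other steps used scipy 1.17.1, pandas 2.3.3 and numpy 2.4.6 under Python 3.11.15.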

Additional observations from a re-analysis of the deposited data

How the results depend on the processing

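The axillary atlas and the mediastinal atlas decided most counts. Leaving out 1 condition of 1 library at a time, the members called ranged from 6 to 20 for NK over CD8 cells, 0 to 6 for innate lymphoid over CD8 cells (lower: 0 to 0), 0 to 8 for gamma-delta over CD8 cells, 3 to 16 for NK over innate lymphoid cells, 1 to 1 higher and 0 to 1 lower for regulatory over conventional CD4 cells, 0 to 3 for CD8 cells with over those without effector transcripts, and 0 to 1 higher and 0 to 16 lower for interleukin-17-type over other gamma-delta cells. Over all genes these ranges were 589 to 4103, 641 to 2898, 101 to 2878, 363 to 2224, 677 to 2897, 6 to 1284 and 1 to 3361, in the same order. Where an atlas is left out, a lone sum is assumed to vary like the others. Without the axillary sums Klrb1c in innate lymphoid over CD8 cells turned to −0.65 (2.94 without the mediastinal sums), and Klri1 and Klri2 in interleukin-17-type over other gamma-delta cells to 0.28 and 0.37 (−4.80 and −5.88 without the mediastinal sums).

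With cells thinned to 1000 UMIs, the genes called were 1058 for NK over CD8, 708 for innate lymphoid over CD8, 360 for gamma-delta over CD8, 500 for NK over innate lymphoid, 519 for regulatory T over CD4, 8 for the divided CD8 and 580 for the divided gamma-delta cells. With naive sums only they were 1661, 1484 and 268 for the 3 comparisons with CD8 cells, 207 for regulatory T, 2 for the divided CD8 and 324 for the divided gamma-delta cells. Members called after thinning were 2 for innate lymphoid over CD8, 0 for gamma-delta over CD8, 6 for NK over innate lymphoid, 0 lower for regulatory T and 2 lower for interleukin-17-type cells. With naive sums they were 1 for gamma-delta over CD8, 0 lower for regulatory T and 1 lower for interleukin-17-type cells. No replicate block, in place of the block by library and condition, gave 11 members for gamma-delta over CD8, 3 for NK over innate lymphoid, 0 lower for regulatory T and 0 lower for interleukin-17-type cells, and 1123, 596, 18 and 355 genes for NK over innate lymphoid, regulatory T, divided CD8 and divided gamma-delta cells. With no gene filter, members called were 6 for gamma-delta over CD8, 17 for NK over innate lymphoid, 1 lower for innate lymphoid, 5 lower for regulatory T, 6 for divided CD8, and 2 higher and 15 lower for interleukin-17-type cells, with 896 genes for divided CD8 cells. DESeq2 gave 1 lower for innate lymphoid, 1 for gamma-delta over CD8, 1 for divided CD8 and 0 for interleukin-17-type cells. Without scrublet 4 members were called for gamma-delta over CD8, and with 1 CD3 UMI allowed 1 was higher in interleukin-17-type cells. The cause of these shifts was not tested.

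Thinning left 1 (4T1) and 0 (67NR) CD8 members past 2-fold and 0 in 67NR lymphatic cells, turned Klrb1f in 4T1 over naive CD4 cells to 1.49 and Klri2 in 67NR over naive migratory dendritic cells to 0.96, and moved lymphatic Klrb1f to 128 CPM in 4T1 and 192 in LPS. Shares of cells thinned were 60.5% for Klrd1, 37.7% for Klrk1 and 24.5% for Klra3 in NK cells, 21.8% for Klrk1 in interleukin-17-type cells, 4.56%, 6.71% and 3.78% for Klrg1 in regulatory T cells of 4T1, 67NR and naive nodes, 24.4% for Klra2 in naive neutrophils, and 12.8%, 14.3%, 11.5% and 7.14% for Klrb1f in lymphatic cells of 4T1, 67NR, LPS and naive nodes. Ratios in neutrophils, monocytes, dendritic and lymphatic cells were added after seeing the data. In all 17 settings Klra7, Klrb1a, Klrb1c, Klrb1f, Klri1 and Klri2 were called for NK over CD8 cells and Klrg1 for regulatory T cells. Alternatives for NK cells by condition were not run, since only naive nodes reached 20 such cells.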
